A study of Mus musculus with 12 samples.

Results

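The genes described here are 45 genes of the cell cycle and of DNA replication: the MCM helicase, origin licensing and fork proteins, enzymes of nucleotide synthesis, cyclins and cyclin-dependent kinases with their inhibitors, E2F and Foxm1 transcription factors, and kinases and other proteins of the checkpoints and of mitosis. A gene was kept where a probe carrying its symbol, current or older, was detected (detection p-value under 0.05) on at least 3 of 12 arrays, and it was read on its brightest such probe. This left 41 of the 45, among 10255 genes detected in the same way. The expression of Mki67 and Ccnb1 was not analysed here, though their promoters were searched. Bub1, a checkpoint kinase, was detected on none of the 12 arrays and Ccnb2, a B-type cyclin, on 1 array. Of the 41, 40 were detected on all 12 arrays, and Cdkn1b on 3.

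RNA came from progenitor B cells of the fetal liver of C57BL/6 mouse embryos and was read on single-colour Illumina bead arrays, 3 for each of 4 groups. Every group carried the floxed Sox4 alleles. In the loss experiment, Sox4fl/fl cells were set against Sox4fl/fl SE-Cre cells. In the gain experiment, p190 Bcr-Abl, a leukaemia-causing tyrosine kinase fusion, had immortalized Sox4fl/fl SE-Cre cells, and those labelled HA were set against those labelled HA-Sox4. Since SE-Cre was never present beside an intact Sox4 gene, SE-Cre itself and the loss of Sox4 cannot be told apart. The vectors, the driver of SE-Cre, the number of separate lines and the source of the replicates are not stated in the labels, and p-values therefore measure only the spread between the arrays of a group, possibly technical.

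Median intensity was 83.4 to 90.2 on the loss arrays and 114.5 to 139.2 on the gain arrays, with 36.1% to 40.0% of probes detected. Sox4 itself read 10.67, 10.55 and 10.60 (log2 normalized intensity) in Sox4fl/fl and 4.60, 4.65 and 4.27 in SE-Cre cells, where 1 of 3 arrays detected it. The probe was detected on no HA array, at 4.53, 5.0 and 4.51, and on all 3 HA-Sox4 arrays, at 5.96, 5.14 and 5.32. HA-Sox4 cells were at least 1.18-fold higher on this probe (limma adjusted p = 0.0326), and whether it reads the introduced construct is not stated in the labels. That call was lost without HA replicate 1 (adjusted p = 0.0892) and without HA replicate 3 (adjusted p = 0.0906). Of the B lineage markers with a probe, 9 of 10 were detected on all 3 Sox4fl/fl arrays and 10 of 10 on all arrays of each other group, with Pax5 on no Sox4fl/fl array. Some of these markers moved. On loss Pax5, a B lineage transcription factor, was at least 1.63-fold higher (limma adjusted p = 0.0024). It entered this test only through the SE-Cre arrays, so its p-value is not independent support either. Ebf1, another such factor, differed on loss by -0.49 (0.0286) and Blnk, an adaptor of the pre-B cell receptor, by -0.70 (0.03). The Blnk call on loss did not hold when SE-Cre replicate 1, or either of Sox4fl/fl replicates 1 and 2, was left out (0.0752 to 0.118). On gain Blnk rose by 1.29 (0.000466) and Il7r, the interleukin-7 receptor, differed by -0.39 (0.0067). The part of these markers in the results was not tested.

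Cells pass from G1 into S phase when D-type cyclins with Cdk4 or Cdk6, and then cyclin E with Cdk2, phosphorylate the retinoblastoma protein and release E2F factors, which drive genes of DNA replication and nucleotide synthesis. Genes of the G2 and M phases are driven later, through Foxm1 and the MYB-MuvB complex, which acts on a promoter element called the cell cycle homology region (CHR), often beside CCAAT boxes bound by NF-Y. Progenitor B cells of the fetal liver divide fast in response to interleukin-7, and rearrangement of their immunoglobulin genes is tied to arrest in G1.

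The promoters of the members were searched for these elements. RefSeq promoter windows on GRCm38.p6, from 250 bases before to 50 bases after the annotated start, were found for 37 of the 45 genes, 41 windows in all. Ccnd1, Ccnd2, Ccne2, Ccna2, Mcm4, Gmnn, Aurkb and Foxm1 had none. Letters were searched on both strands. For CHR they were TTTGAA or else TTCGAA. The E2F motif was met by TTCGCGC, by the letters TTGGCGC, by the letters TTCCCGC or by the letters TTGCCGC. The box was CCAAT, and no motif was dropped for overlapping another. CHR letters stood in 16 of 41 windows (39%), against 19.2% of all 32851 windows. E2F letters stood in 16 (39%), against 9.57%, and CCAAT in 29 (70.7%), against 37.4%. CHR and CCAAT stood together in 16 windows (39%), against 7.52%. By role, E2F letters were in 5 of 6 MCM windows, and CHR letters in 5 of 6 windows of the checkpoint and mitotic kinases and 5 of 6 of the mitotic exit, spindle and chromosome genes. The G1 cyclins and kinases had CHR letters in 0 of 6 windows and E2F letters in 1 of 6. A match of letters is a description and does not show binding.

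**Figure D1:**
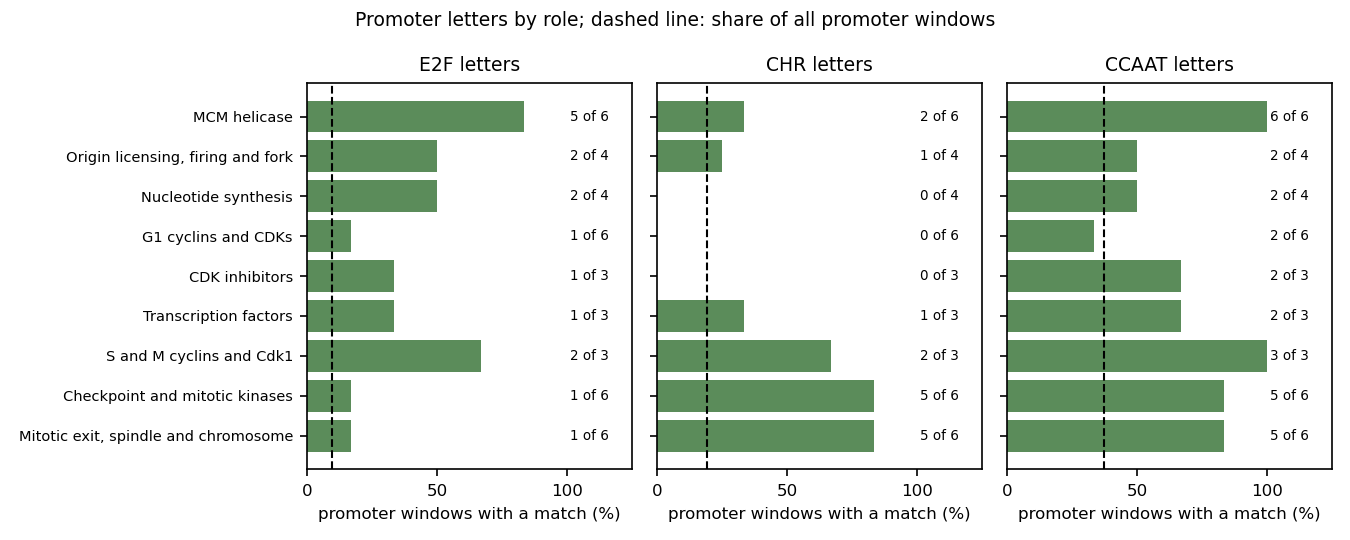
Share of RefSeq promoter windows (%) that hold E2F, CHR or CCAAT letters, by role of the gene. Bars are shares, the text at the right gives the windows counted, and dashed lines are the shares over all 32851 windows (9.57%, 19.2% and 37.4%). E2F letters are most frequent in the MCM class (5 of 6) and CHR letters in the 2 mitotic classes (5 of 6 each).

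The 150 bases before the start are shown for 6 members that stand for these patterns and for the changes described further on. Top2a, the DNA topoisomerase that untangles sister chromatids, and Cdc20, an activator of the anaphase-promoting complex, have CHR and CCAAT letters. Cdk2, the partner of cyclins E and A, and Mcm6, a helicase subunit, have E2F and CCAAT letters. Cdk4 and Cdk6, the partners of the D-type cyclins, have none of the letters searched. Capitals mark the matches on either strand.
Top2a, chr11:99024190-99024339, minus strand: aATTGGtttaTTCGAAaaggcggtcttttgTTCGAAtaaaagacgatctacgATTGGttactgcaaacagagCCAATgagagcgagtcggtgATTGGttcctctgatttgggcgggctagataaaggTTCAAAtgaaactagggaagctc
Cdc20, chr4:118437344-118437493, minus strand: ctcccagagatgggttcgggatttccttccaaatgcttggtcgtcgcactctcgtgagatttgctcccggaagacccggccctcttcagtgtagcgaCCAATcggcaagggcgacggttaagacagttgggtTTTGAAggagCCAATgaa
Cdk2, chr10:128705052-128705201, minus strand: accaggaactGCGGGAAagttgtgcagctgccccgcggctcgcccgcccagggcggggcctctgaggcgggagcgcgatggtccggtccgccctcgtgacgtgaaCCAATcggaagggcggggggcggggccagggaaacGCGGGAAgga
Mcm6, chr1:128359706-128359855, minus strand: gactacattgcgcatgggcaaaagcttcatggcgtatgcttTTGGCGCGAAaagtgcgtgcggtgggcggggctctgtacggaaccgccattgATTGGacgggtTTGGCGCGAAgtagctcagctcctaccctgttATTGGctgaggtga
Cdk4, chr10:127063385-127063534, plus strand: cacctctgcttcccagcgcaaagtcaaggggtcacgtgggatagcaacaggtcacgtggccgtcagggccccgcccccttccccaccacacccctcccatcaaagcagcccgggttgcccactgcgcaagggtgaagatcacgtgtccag
Cdk6, chr5:3343743-3343892, plus strand: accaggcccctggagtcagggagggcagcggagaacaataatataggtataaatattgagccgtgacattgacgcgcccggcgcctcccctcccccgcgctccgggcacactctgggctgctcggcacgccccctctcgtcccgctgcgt

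On loss of Sox4, 2 of the 41 members passed the test (4.88%), against 16.4% of 8899 genes tested. Plk1, the kinase that drives mitotic entry and spindle assembly, was higher in SE-Cre cells, 1 member against 7.43% of genes, and Rrm2, the small subunit of ribonucleotide reductase, was lower, 1 member against 8.96% of genes. The log2 differences of the members, SE-Cre minus Sox4fl/fl, ran from -0.46 to 0.57 with a median of 0.09, against 0.02 over all genes tested. Of the members, 27 lay above 0 and 14 below. The arrays limit the precision: a member that did not pass is not shown to be unaltered.

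Plk1 read 9.27, 9.08 and 9.28 in Sox4fl/fl and 9.71, 9.85 and 9.79 in SE-Cre cells. Every SE-Cre array stood above every Sox4fl/fl array. The difference was 0.57 on the log2 scale (SE 0.14, limma adjusted p = 0.0147), a 1.49-fold rise, and without Sox4fl/fl replicate 2 it was 0.51 and no longer passed (adjusted p = 0.0747). Rrm2 read 8.72, 8.64 and 8.66 in Sox4fl/fl and 8.25, 8.13 and 8.27 in SE-Cre cells, again with no overlap. It fell by 0.46 on the log2 scale (SE 0.13, limma adjusted p = 0.039). This call was weak: it was lost whichever of the 6 arrays was left out (adjusted p 0.0579 to 0.117), and the other 2 Rrm2 probes gave -0.18 and 0.22, neither past the threshold.

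On their brightest probes, the D-type cyclins did not pass on loss. Ccnd2, cyclin D2, read 10.34, 10.44 and 10.61 in Sox4fl/fl and 10.78, 10.77 and 10.97 in SE-Cre cells. The groups did not overlap, with a difference of 0.38 (SE 0.14, limma adjusted p = 0.102). It passed without background correction (0.0243), in the authors' processed values (0.0242) and with trend and robust (0.0214). Its other probes gave 0.32 (0.17) and -0.01 (0.982), neither past the threshold. Ccnd3, cyclin D3, which pre-B cells need to expand, read 13.23, 13.17 and 13.28 and then 13.30, 13.32 and 13.36, a difference of 0.10 (SE 0.13, limma adjusted p = 0.68). A second, dimmer Ccnd3 probe gave 0.85 (limma adjusted p = 0.0453) and the third 0.14 (0.639), so the probes of this gene disagree. Ccnd1, cyclin D1, was dim, at 4.69, 4.83 and 4.75 and then 4.92, 5.07 and 5.07, with a difference of 0.27 (limma adjusted p = 0.23). Cdk4, Cdk6 and Cdk2 differed by -0.05, 0.11 and 0.01, none past the threshold.

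Both inhibitors among the members also stayed short of the threshold on loss. Cdkn1b, which encodes p27, read 4.29, 4.72 and 4.78 in Sox4fl/fl and 4.55, 4.41 and 4.85 in SE-Cre cells. It was detected on 2 of the first and 1 of the second 3 arrays, near the limit of detection. Cdkn2c, which encodes p18INK4c, an inhibitor of Cdk4 and Cdk6, read 9.53, 9.87 and 9.48 and then 9.36, 9.43 and 9.38, without overlap and with a difference of -0.24 (SE 0.15, limma adjusted p = 0.335). Among mitotic genes that did not pass, Cdc20 differed by 0.40 (adjusted p = 0.078), Ube2c, the ubiquitin-conjugating enzyme of mitotic exit, by 0.37 (0.18) and Kif11, a spindle motor, by 0.32 (0.181). All 4 Cdc20 probes lay above 0, between 0.34 and 0.45, and Cdc20 passed without background correction (0.0128), in the authors' processed values (0.0135), with trend and robust (0.0144) and with the mean of its probes (0.0409).

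In the gain experiment, 17 of 40 members tested passed (42.5%), against 44.1% of 9219 genes. Of these, 13 were higher in HA-Sox4 cells (32.5%, against 21.3% of all genes) and 4 were lower (10%, against 22.7%). The median difference, HA-Sox4 minus HA, was 0.17, against -0.05 over all genes tested, and the range was -2.00 to 1.02. The 13 rises were Cdk4, Cdk2 and Ccne1 of the G1 to S step, E2f2 and Foxm1 of the transcription factors, Rrm2, Tyms and Tk1 of nucleotide synthesis, Top2a, Bub1b and Ttk of mitosis, the helicase gene Mcm7 and the inhibitor gene Cdkn2c. The 4 falls were Cdk6, Ccnd2, Cdt1 and Cdc20. Calls for 9 members, namely Cdk6, Ccnd2, Cdk4, Cdk2, Ccne1, E2f2, Bub1b, Ttk and Top2a, were made under all 16 alternatives tried. The other 8 were lost under some.

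**Figure D2:**
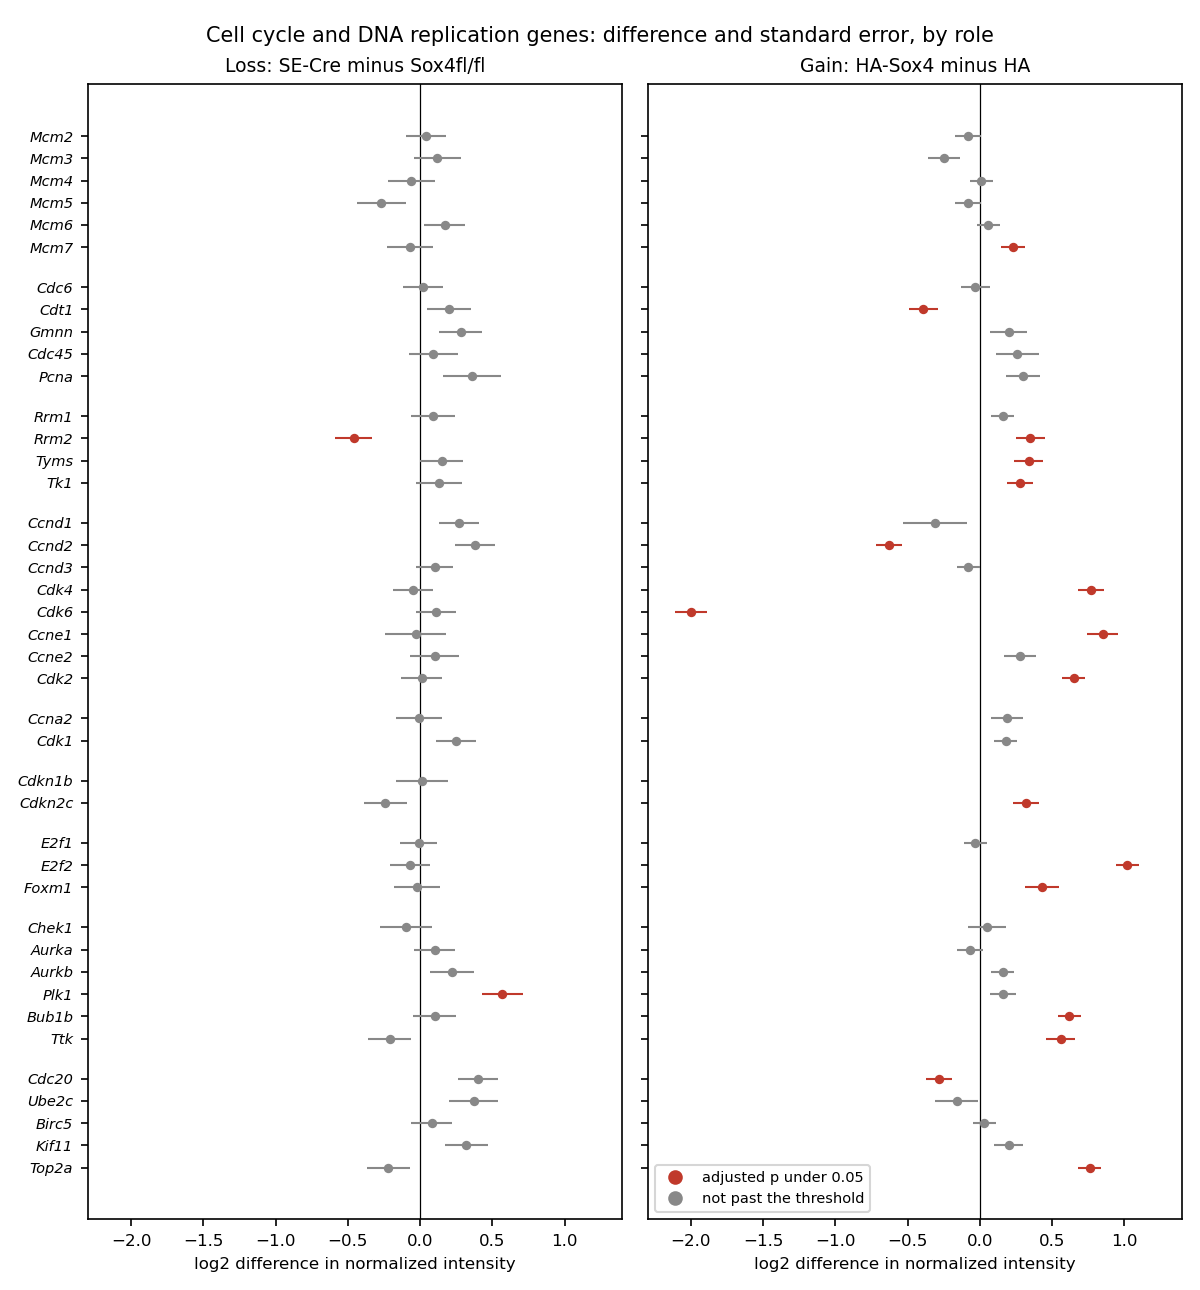
Difference (log2) of each of the 41 members, grouped by role from the MCM helicase at the top to mitotic exit, spindle and chromosome genes at the bottom, in the loss (left) and gain (right) experiments. Points are differences of group means, bars are standard errors of the fit, and red marks members past the threshold; Cdkn1b was not tested on gain. Members sit near 0 on loss, with Plk1 and Rrm2 past the threshold, and spread from -2.00 (Cdk6) to 1.02 (E2f2) on gain.

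The partners of the D-type cyclins moved in opposite directions. Cdk6 read 7.56, 7.76 and 7.68 in HA and 5.84, 5.63 and 5.54 in HA-Sox4 cells. The groups were far apart, by -2.00 (SE 0.11, limma adjusted p = 1.34e-05), or 3.99-fold. The size depends on the background correction, since without it the difference was -0.92 and in the authors' processed values -0.99, both past the threshold. Cdk6 has 1 probe here. Cdk4 read 11.09, 11.29 and 11.11 in HA and 11.89, 11.91 and 12.01 in HA-Sox4 cells. All HA-Sox4 arrays were above all HA arrays, by 0.77 (SE 0.09, limma adjusted p = 0.000589), and the second Cdk4 probe gave 0.52 (0.00589).

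Among the D-type cyclins, Ccnd2 fell. It read 12.55, 12.75 and 12.54 in HA and 12.04, 11.95 and 11.96 in HA-Sox4 cells. The groups did not overlap, and the difference was -0.63 (SE 0.09, limma adjusted p = 0.00164). The other Ccnd2 probes gave -0.71 and -1.20, both past the threshold. Ccnd3 read 14.22, 14.30 and 14.31 and then 14.14, 14.22 and 14.24, overlapping at 14.22, with a difference of -0.08 (limma adjusted p = 0.462). Its dimmest probe gave -0.46 (0.0197), and the mean of its probes -0.30 (0.0235). Ccnd1 read 6.00, 6.07 and 5.35 in HA and 5.50, 5.23 and 5.75 in HA-Sox4 cells, overlapping, with a difference of -0.31 (limma adjusted p = 0.294), and without HA replicate 3 the difference was -0.54 and passed (0.0457).

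Cyclin E1 and its kinase rose. Ccne1 read 6.99, 7.22 and 7.35 in HA and 7.93, 8.05 and 8.14 in HA-Sox4 cells. There was no overlap, and the difference was 0.85 (SE 0.11, limma adjusted p = 0.0012), or 0.53 without background correction and 0.55 in the authors' processed values. Cdk2 read 12.45, 12.35 and 12.49 and then 13.06, 13.08 and 13.10. The shift of 0.65 (SE 0.08, limma adjusted p = 0.000724) was several times the spread within either group, and its other 3 probes also passed, at 0.71, 0.69 and 0.44. Ccne2, cyclin E2, differed by 0.28 and did not pass (adjusted p = 0.0899), though it did without background correction (0.19, 0.0451) and in the authors' processed values (0.20, 0.047).

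**Figure D3:**
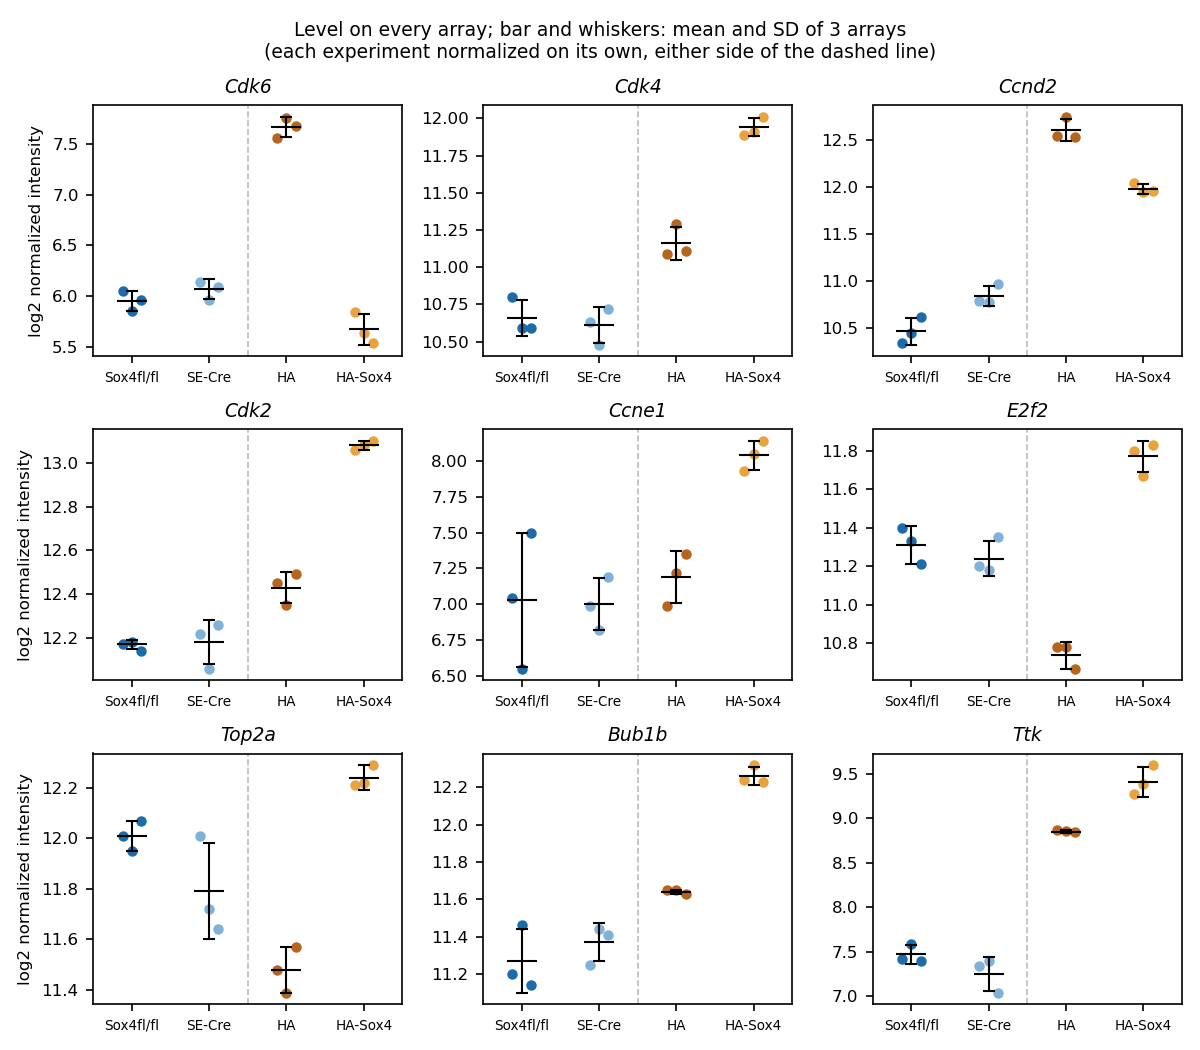
Level on every array (log2 normalized intensity) of the 9 members called on gain under all alternatives tried, in Sox4fl/fl, SE-Cre, HA and HA-Sox4 cells. Points are arrays, bars and whiskers the mean and SD of 3 arrays, and values on either side of the dashed line were normalized separately and cannot be set against each other. Cdk6 stands at 7.56 to 7.76 on HA arrays and at 5.54 to 5.84 on HA-Sox4 arrays. The members shown were chosen for their calls on gain, so a gap between HA and HA-Sox4 points follows from the choice.

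Of the transcription factors, E2f2, an activating E2F, read 10.78, 10.78 and 10.67 in HA and 11.80, 11.67 and 11.83 in HA-Sox4 cells. Its groups lay apart by 1.02 (SE 0.08, limma adjusted p = 0.000113), or 2.03-fold, and its second probe gave 1.07. E2f1 overlapped between the groups, with a difference of -0.03 (SE 0.08, limma adjusted p = 0.817). Foxm1 read 9.12, 9.29 and 9.0 and then 9.72, 9.62 and 9.37. These did not overlap, with a difference of 0.43 (SE 0.12, limma adjusted p = 0.0292), but the call was lost without HA replicates 1 and 3 or HA-Sox4 replicates 1 and 2, each left out alone (adjusted p 0.0716 to 0.0887).

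In the mitotic classes, Top2a read 11.48, 11.39 and 11.57 in HA and 12.21, 12.22 and 12.29 in HA-Sox4 cells. The rise of 0.76 (SE 0.08, limma adjusted p = 0.000475) came with 0.63 and 0.46 on its other probes, the last not past the threshold (0.102). Bub1b, which encodes the spindle checkpoint protein BubR1, read 11.65, 11.65 and 11.63 and then 12.24, 12.32 and 12.23. This gave 0.62 (SE 0.08, limma adjusted p = 0.000732), while its second probe gave 0.26 (0.192). Ttk, the checkpoint kinase Mps1, read 8.87, 8.86 and 8.84 and then 9.27, 9.38 and 9.60, higher on every HA-Sox4 array by 0.56 (SE 0.10, limma adjusted p = 0.00479).

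The other mitotic members moved less or not past the threshold. Cdc20 read 11.33, 11.26 and 11.33 in HA and 11.17, 10.91 and 10.99 in HA-Sox4 cells. The call on its log2 difference of -0.28 (SE 0.09, limma adjusted p = 0.0489) was lost when HA replicate 1, 2 or 3 or HA-Sox4 replicate 2 or 3 was left out (adjusted p 0.0776 to 0.133). Its other probes gave -0.00, -0.08 and -0.42, the last past the threshold (0.0329). Plk1 differed by 0.16, Aurkb by 0.16, Aurka by -0.07, Birc5 by 0.03 and Kif11 by 0.20, none past the threshold. The second Kif11 probe gave 0.57 and passed (0.0386), as did the mean of its probes, at 0.39 (0.00671). Aurora kinases A and B and survivin, the product of Birc5, serve the spindle and chromosome segregation. Cdk1, the mitotic kinase, read 11.73, 11.85 and 11.76 and then 11.90, 12.06 and 11.93, with a difference of 0.18 (limma adjusted p = 0.133) that passed without background correction (0.0461) and with trend and robust (0.03). The second Cdk1 probe went the other way, at -0.38 (0.0552). Ccna2, cyclin A2, differed by 0.19 (0.196).

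Of the nucleotide synthesis genes, 3 of 4 rose on gain by the brightest probe, where 21.3% of all genes did. Rrm2 read 9.50, 9.74 and 9.52 in HA and 9.95, 9.85 and 10 in HA-Sox4 cells, a difference of 0.35 (SE 0.10, limma adjusted p = 0.0267). The other Rrm2 probes gave 0.47 (0.0129) and 0.04 (0.804). Tyms, thymidylate synthase, read 11.08, 10.99 and 11.30 and then 11.49, 11.41 and 11.50, a difference of 0.34 (SE 0.10, limma adjusted p = 0.0328), while its other 4 probes gave -0.03 to 0.45, none past the threshold. Tk1, thymidine kinase, read 10.90, 10.92 and 11.11 and then 11.27, 11.25 and 11.27, a difference of 0.28 (SE 0.09, limma adjusted p = 0.038). The second Tk1 probe gave 0.66 (0.00477). On the brightest probe, each of these 3 calls was lost in some fits without 1 array. For Rrm2 these were HA replicates 1 and 3 and HA-Sox4 replicates 1 and 3 (adjusted p 0.0732 to 0.0796). For Tyms they were HA replicates 1 and 2 and each HA-Sox4 replicate (0.0603 to 0.0915), and for Tk1 the same 5 arrays (0.0801 to 0.103). Rrm1, the large subunit of ribonucleotide reductase, read 11.92, 12 and 12.01 and then 12.14, 12.11 and 12.14, a difference of 0.16 that did not pass (0.143). Its other probes gave 0.25 (0.0633) and 0.39 (0.00926), and the mean of its probes gave 0.27 and passed (0.016).

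In the replication machinery 2 of 11 members passed, against 44.1% of all genes. Mcm7 read 11.67, 11.70 and 11.63 in HA and 11.92, 11.94 and 11.85 in HA-Sox4 cells, a difference of 0.23 (SE 0.08, limma adjusted p = 0.0432). The groups did not overlap, but the call was lost whichever array was left out (adjusted p 0.0646 to 0.11), and its second probe gave -0.16 (0.31). By their brightest probes, the other MCM genes ran from -0.25 (Mcm3) to 0.06 (Mcm6), none past the threshold, and Mcm4 read 13.12, 13.12 and 13.25 and then 13.20, 13.13 and 13.20. A second Mcm4 probe gave -0.35 and passed (0.0235), and Mcm3 passed without background correction (-0.21, 0.0373), in the authors' processed values (-0.21, 0.0414) and with trend and robust (-0.25, 0.0446). Cdt1, which loads the helicase on origins, read 11.08, 10.84 and 10.86 and then 10.53, 10.43 and 10.64. It differed by -0.39 (SE 0.10, limma adjusted p = 0.0201), a call lost without HA replicate 1 or HA-Sox4 replicate 1 or 2 (0.0536 to 0.0638). Pcna, the sliding clamp, read 12.89, 13.16 and 12.81 and then 13.14, 13.34 and 13.29, with a difference of 0.30 (0.0794) that passed without HA replicate 2 (0.40, adjusted p = 0.0285), without background correction (0.00919), in the authors' processed values (0.0114) and with trend and robust (0.00424).

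Of the inhibitors, Cdkn2c read 9.60, 9.48 and 9.39 in HA and 9.91, 9.77 and 9.74 in HA-Sox4 cells. It was higher by 0.32 without overlap (SE 0.09, limma adjusted p = 0.0325), a call lost without HA replicate 2 or 3 or any HA-Sox4 replicate (0.0526 to 0.096). The second Cdkn2c probe gave 0.32 (0.0244) and the third -0.20 (0.483). With the mean of its probes the difference was 0.14 and did not pass (0.271). Cdkn1b was detected on none of the 6 arrays and was not tested.

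The calls on gain can be set beside the promoter letters, with no test. Of 13 tested members with CHR letters 5 rose and 1 fell, of 13 with E2F letters 5 rose and 1 fell, and of 9 with neither 4 rose and 1 fell. Over all genes, 21.3% rose and 22.7% fell on gain. The CHR and E2F groups share 3 members that hold both kinds of letters. Those with neither include Tyms, Tk1 and Pcna, and a window without the letters is not shown to lack control by E2F or through CHR. Cdk4 and Cdk6, whose printed windows hold none of the letters, moved in opposite directions, and Mcm6, with 4 E2F matches in the bases printed, differed by 0.06.

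The effect of Sox4 was then compared between the experiments, as HA-Sox4 minus HA less Sox4fl/fl minus SE-Cre, with all 12 arrays normalized and fitted together. It differed for 6 of 41 members (14.6%), against 19.9% of 10255 genes. It was more positive for 5 (12.2%, against 10.8%) and more negative for 1 (2.44%, against 9.09%). Cdk6 differed by -1.77 (SE 0.16, limma adjusted p = 5.35e-06), or by -0.71 without background correction and -0.93 in the authors' processed values. E2f2 differed by 0.95 (SE 0.15, adjusted p = 0.000547) and Plk1 by 0.75 (SE 0.15, adjusted p = 0.0039). Bub1b differed by 0.71 (SE 0.16, adjusted p = 0.00688), Cdk4 by 0.71 (SE 0.16, adjusted p = 0.00756) and Cdk2 by 0.65 (SE 0.15, adjusted p = 0.0077). With the mean of a gene's probes, Cdk4 differed by 0.45 and Bub1b by 0.31, the latter no longer past the threshold (0.106). For Cdk6, E2f2, Bub1b, Cdk4 and Cdk2 the loss difference had not passed while the gain difference had. For Plk1 it was the reverse, the SE-Cre level being the higher one on loss. Ccnd2 differed by -0.25 and did not pass (adjusted p = 0.353), but with the mean of its probes it differed by -0.61 and passed (0.00268). Just short of the threshold were Cdk1 (0.44, adjusted p = 0.0556), Top2a (0.51, 0.0584), Kif11 (0.53, 0.0595) and Ccne1 (0.82, 0.0606). Each of these passed under some alternatives. The cells of the experiments also differed in immortalization and were read in separate sets of arrays, which cannot be told apart from the difference in effect.

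Levels in the 4 groups, with all arrays normalized together, are given as a description. HA and SE-Cre cells were read in separate sets of arrays, so immortalization and the set of arrays cannot be told apart here. HA cells stood below SE-Cre cells by over 2-fold for 12 members and above by over 2-fold for 3, together 15 of 41, against 17.5% of all genes. Over all genes, 7.83% were lower and 9.69% higher in HA cells by that measure. The median over members was -0.67, against -0.07 over all genes. The 3 higher members were Ube2c (1.90), Ccna2 (1.57) and Pcna (1.23). The lowest were E2f2 (-1.74), Ccne2 (-1.71), Tyms (-1.65) and Top2a (-1.60). The mean level over 40 members was 10.38 to 10.46 on Sox4fl/fl arrays, 10.47 to 10.54 on SE-Cre, 10.01 to 10.04 on HA and 10.13 to 10.17 on HA-Sox4 arrays. Cdk6 averaged 6.66, 6.78, 7.19 and 5.30 in that order, and Cdk4 11.43, 11.38, 10.67 and 11.44. Thus the average Cdk6 level of HA-Sox4 cells was below that of every other group. Their Cdk4 arrays, at 11.39 to 11.51, lay within the 11.24 to 11.57 of the primary arrays. Both statements set levels against each other across the sets of arrays, and the size of the Cdk6 fall on gain depends on the background correction.

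Other cell cycle genes, in lists that leave out the members, gave 9 calls of 128 tested on loss (7.03%, against 16.4% of all genes), 8 higher and 1 lower. On gain they gave 55 of 129 (42.6%, near the 44.1% of all genes), 35 higher and 20 lower. Over all genes, 7.43% rose and 8.96% fell on loss, and 21.3% rose and 22.7% fell on gain. Of the other G2 and M phase genes, 2 rose and 1 fell of 36 on loss, and 16 rose and 3 fell of 38 on gain. On gain these included Ndc80, a kinetochore protein (0.92, limma adjusted p = 0.000326), and Nusap1, a spindle protein (0.75, 0.000457). Ckap2, a spindle protein, rose on loss (0.69, 0.00414) and fell on gain, by -0.31 (0.0191), the latter lost without HA replicate 1 or HA-Sox4 replicate 1 or 3 (0.0553 to 0.0581). Of the other S phase genes none of 23 passed by limma on loss, 0 with an unadjusted p under 0.05, and 6 rose and 2 fell of 22 on gain, among them Chaf1b, a chromatin assembly factor (0.63, 0.00077), Blm, a helicase (0.57, 0.00178), and Gins2, a helicase cofactor (-0.68, 0.000399).

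Replication origin and polymerase genes gave 3 rises and 5 falls of 26 on gain, and 1 rise on loss. Of all genes tested, 21.3% rose and 22.7% fell on gain, and 7.43% rose on loss. Cdc7, the kinase that fires origins, rose (0.72, limma adjusted p = 0.000516), while the origin recognition subunits Orc1 (-0.82, 0.00326) and Orc3 (-0.51, 0.00398) fell. In the RB, E2F and DREAM list 5 rose and 1 fell of 12 on gain, with Tfdp2, an E2F partner, at 1.53 (4.52e-05), Rb1, the retinoblastoma protein, at 0.53 (0.00212) and E2f4, a repressive E2F, at -0.63 (0.00356). On loss 1 of 12 rose.

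Of 5 inhibitors outside the members, 4 fell and 1 rose on gain, where 22.7% and 21.3% of all genes did. Cdkn2b, which encodes p15INK4b, read 8.19, 8.30 and 8.32 in HA and 6.67, 6.68 and 6.60 in HA-Sox4 cells, a difference of -1.62 (SE 0.08, limma adjusted p = 9.33e-06). Cdkn2a, the locus of p16INK4a and p19ARF, read 9.62, 9.53 and 9.65 and then 8.44, 7.86 and 7.79, a difference of -1.57 (SE 0.17, limma adjusted p = 0.000454). Neither pair of groups overlapped. Cdkn3, a phosphatase of Cdk2 and Cdk1, differed by -0.73 (0.000678). On loss 1 of 5 rose, where 7.43% of all genes did. This was Cdkn3 (0.47, 0.0356), a call lost whichever array was left out (0.0649 to 0.123).

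Of the checkpoint, CDC25 and anaphase regulators, 3 of 10 rose on loss and 1 of 9 on gain. For this list and the next ones, the shares over all genes were as follows. On loss 16.4% passed and 7.43% rose, and on gain 21.3% rose and 22.7% fell. On loss Espl1, separase, rose by 0.60 (limma adjusted p = 0.0136) and Pkmyt1, an inhibitory kinase of Cdk1, by 0.59 (0.0183). Espl1 was lost without Sox4fl/fl replicate 1 (0.0638), and Pkmyt1 when replicate 1 or 3 of either group was left out (0.0602 to 0.0646). Cdc25a, the phosphatase that activates Cdk2, rose on gain (0.61, 0.00259), but with the mean of its probes the difference was 0.28 and did not pass (0.159). Other nucleotide synthesis genes gave 1 rise and 3 falls of 10 on gain, with Rrm2b, the p53-controlled ribonucleotide reductase subunit, at 0.64 (0.00378), Shmt1, of folate metabolism, at -0.56 (0.00116) and Umps, of pyrimidine synthesis, at -0.41 (0.0109). In the MYC network 2 rose and 2 fell of 7 on gain: Mxi1 (1.55, 2.87e-05) and Mxd3 rose, and Mxd4 (-1.03, 4.83e-05), all of them MAX partners that oppose MYC, and Myc itself (-0.67, 0.000612) fell. On loss, none of 10 nucleotide synthesis genes and none of 6 MYC network genes passed by limma, with 2 in each list at an unadjusted p under 0.05.

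**Figure D4:**
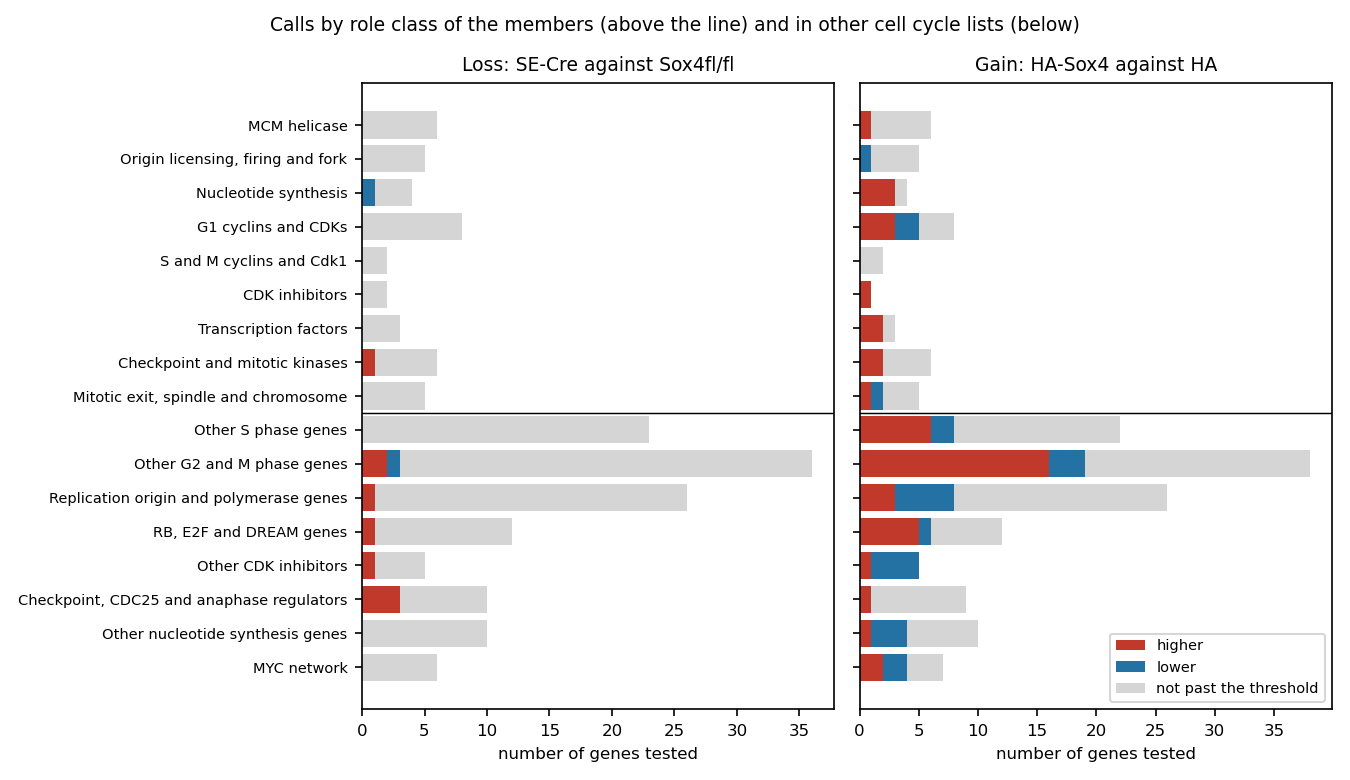
Number of genes tested in each role class of the members (above the line) and in the other cell cycle lists (below), split into higher, lower and not past the threshold, for loss (left) and gain (right). On gain 16 of 38 other G2 and M phase genes are higher and 3 lower, and 4 of 5 other inhibitors are lower. Over all genes, 21.3% are higher and 22.7% lower on gain.

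Markers of other cells were mostly undetected. Of 8 myeloid markers, Lyz2 was the one detected on all 3 arrays of every group, and Elane, Itgam, Cd14, S100a8 and S100a9 were detected on none. Lyz2 moved with both comparisons, by 1.5 on loss (limma adjusted p = 0.00068) and -2.52 on gain (4.47e-05). The summed myeloid level (linear) was 231.6 to 272.4 in Sox4fl/fl, 370.5 to 500.8 in SE-Cre, 437.4 to 494.4 in HA and 195.8 to 228.4 in HA-Sox4 arrays. Among 6 mast cell and megakaryocyte markers, Mcpt8 was detected on every HA array and on no array of another group, and summed to 191.6 to 232.1 with its list in HA against 126.9 to 130.6 in HA-Sox4 cells. Of 8 T and NK cell markers, Nkg7 was higher in HA-Sox4 cells by 2.17 (3.4e-05), and Cd3d, Cd3e and Cd3g were detected on no array. No hepatocyte or stromal marker was detected on all 3 arrays of a group, and of the erythroid markers Tfrc alone was, with Hba-a1 and Alas2 detected on no array. Tfrc, the transferrin receptor, which dividing cells also express, was higher in HA-Sox4 cells by 0.54 (0.0021). The summed erythroid level was 4134 to 4343 in HA and 5817 to 6412 in HA-Sox4 cells, and is not separate from the Tfrc rise. All summed levels also count undetected probes: the 6 hepatocyte probes, none detected in HA cells, summed to 133.7 to 145.3 there. The part of such cells in the results was not tested. In bulk RNA, a change in the share of cycling cells and a change in RNA per cell cannot be told apart.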

How the data were processed

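The authors deposited, per the file headers, a table of non-normalized intensities with a detection p-value for each, and a table of processed intensities, for 12 arrays in 4 groups of 3. R 3.0.1 is named in the submitters' processing notes. The scanner software is not given in the labels or files used. Of 45281 probes, 34885 carried 1 gene symbol in the platform annotation, 18 several and 10378 none.

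Within each experiment, neqc (limma 3.58.1, R 4.3.3) corrected the background, added an offset of 16, equalized the quantiles and took log2; its negative controls were inferred from detection p-values. Probes with a detection p-value under 0.05 on at least 3 arrays were fitted with lmFit and eBayes, with Benjamini-Hochberg adjustment over all of them (threshold 0.05). The same probe of a gene was used throughout. A group detected on none of its arrays is given as a bound, "at least", against the lowest detected signal of each array. Fits were tested on simulated data.

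The members, the other lists and the rule for naming genes (every member past the threshold, the D-type cyclins, the inhibitors, the member with the highest signal in each role, and of each other list up to 3 genes with the smallest p) were chosen with earlier results of these data known. Other genes named, such as E2f1, Ccne2, Ube2c, Kif11, Aurka, Mcm3, Mxd3 and Ebf1 and the undetected markers, fall outside that rule and were chosen after their values were seen. Levels of different probes cannot be set against each other. Alternatives were other background correction, normalization, filters, probe summaries, a trended and robust eBayes, weighted arrays, a block for the replicate number and each array left out. Replicate numbers did not pair the samples, so the block is reported below with the alternatives.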

Additional observations from a re-analysis of the deposited data

Results flagged for a closer look

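For 6 members the effect of Sox4 differed between the experiments by limma's test of the difference, computed as HA-Sox4 minus HA less Sox4fl/fl minus SE-Cre on the log2 scale. These were Cdk6 (-1.77), E2f2 (0.95), Plk1 (0.75), Bub1b (0.71), Cdk4 (0.71) and Cdk2 (0.65). The first, Cdk6, was lower with Sox4 in immortalized cells, at 5.54 to 5.84 against 7.56 to 7.76, and read 5.85 to 6.05 in Sox4fl/fl against 5.96 to 6.14 in SE-Cre cells. These levels were normalized within each experiment and cannot be set against each other between experiments. Plk1 differed through the loss experiment, where it was higher in SE-Cre cells by 0.57, with a gain difference of 0.16. E2f2, Cdk4, Cdk2 and Bub1b differed through the gain experiment, with loss differences of -0.07, -0.05, 0.01 and 0.10. With the mean of a gene's probes in place of the brightest, the Bub1b difference was 0.31 and no longer passed (adjusted p = 0.106). The Sox4 probe itself differed by -6.10 on loss and by 0.79 on gain, so the contrasts are not shown to hold the same change in Sox4.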

How the results depend on the processing

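The count of members called on loss, 2, became 4 without background correction, 4 in the authors' processed values, 4 with trend and robust, 1 with scaling to a common median, and 0 to 1 with 1 array left out. The genes called on loss, 1458, ranged from 935 to 1164 with 1 array left out, and were 957 without Sox4fl/fl replicate 1 and 935 without replicate 2. Members called on gain, 17, became 21 without background correction, 20 in the authors' processed values and 21 with trend and robust. The count fell to 10 with no detection filter and to 10 to 13 with 1 array left out. It was 10 without HA replicate 1, HA-Sox4 replicate 1 or HA-Sox4 replicate 2 and 11 without HA-Sox4 replicate 3. With fewer arrays a test has less power. Members whose effect differed between experiments, 6, became 12 without background correction, 14 in the authors' processed values, 13 with trend and robust, and 10 with detection on every array or with the mean of a gene's probes. That count was 6 to 10 with 1 array left out, 10 of them without SE-Cre replicate 3. The causes were not tested. No called member changed sign. With the replicate number as a block (replicate block), the counts of members called were 1 on loss, 13 on gain and 7 for the difference, and of genes 1383, 3616 and 1738. Same-numbered samples did not deviate together (correlations -0.02 to 0.04). The Plk1, E2f2, Cdk6, Cdk4 and Cdk2 differences between experiments passed under all 22 alternatives tried. Dim probes, such as Ccnd1 and Cdkn1b, are limited by signal over background.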
